A study of Mus musculus with 20 samples.

Results

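Mono-methylation of lysine 4 of histone H3 (H3K4me1) was compared between inbred C57BL/6 embryonic stem (ES) cells and V6.5 ES cells, using the 3 H3K4me1 ChIP-seq libraries of ES cells among the 20 libraries of a mouse series that also holds fibroblasts (MEFs), liver, neural progenitors and induced pluripotent stem (iPS) cells. The inbred library came from the line j21, which is C57BL/6. The other 2 libraries came from V6.5, a hybrid of C57BL/6 and 129 (129JAE-C57/B6 in the titles). The first is V6.5 without a transgene, and the other is V6.5 carrying 4f2a, a doxycycline-inducible transgene; the labels do not say whether doxycycline was given. All cells had been kept on irradiated MEFs and were then moved to gelatin, for 2 passages in the case of V6.5 and for 1 passage in the case of V6.5 with 4f2a and of the inbred cells. Every library was made with the same antibody product. Each genotype is 1 line with 1 library, so genotype, line and library cannot be told apart for the inbred cells. A p-value below rests only on the spread between the V6.5 libraries, which the labels do not state to be separate cultures. In the fit used for calls this spread was pooled over bins of like read level, not taken from each bin.

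H3K4me1 marks enhancers, both active and poised, and the shoulders of active promoters, whose centres carry tri-methylation (H3K4me3) instead. Active enhancers also carry acetylation of lysine 27 (H3K27ac) and bind the acetyltransferase p300. A hybrid line holds a set of chromosomes from each parental strain, and strain differences in sequence can alter both the binding of transcription factors and the mapping of reads to a C57BL/6 reference.

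The inbred library was the shallowest, with 6373891 reads against 10871524 in V6.5 and 10024574 in V6.5 with 4f2a. Positions that repeated on 1 strand were counted once, which left 6269909, 10103324 and 9526570 reads. Values are RPM, reads scaled to a common library total over the autosomes other than chromosome 8, which is treated apart below. For comparisons bin by bin, each library was thinned to 5854295 such reads. A bin of 5 kb was tested where it held a mean of at least 20 thinned reads, and a bin of 1 kb where it held at least 8. The tested 5 kb bins held 75.9% of inbred reads, 66.0% of V6.5 reads and 68.0% of V6.5 4f2a reads at full depth, against 29.8% of reads of V6.5 whole-cell extract (WCE). The inbred library thus had the largest share of its reads in these bins among the 3.

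The reads themselves separated the genotypes by position. Each file sorts its reads into sections U0 and U1, names that the Solexa software used for unique matches without and with a mismatch, although the files do not define them. Section U1 held 4.72% of inbred reads, 7.37% of V6.5 reads and 8.57% of V6.5 4f2a reads. On the 18 autosomes other than chromosome 8 the inbred share ran from 4.52% to 4.73%, a narrow band. The V6.5 share ran from 6.01% on chromosome 10 to 8.42% on chromosome 14, and the 4f2a share from 7.12% to 9.69% on the same 2 chromosomes. No autosome of the inbred library reached the lowest autosome of either V6.5 library.

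Within chromosomes the V6.5 share alternated between low and high stretches. Over 1772 autosomal windows of 1 Mb with at least 500 reads, the SD of the U1 share was 0.664 percentage points in the inbred library, 2.44 in V6.5 and 2.48 in V6.5 with 4f2a. A share of at least 10% was reached by 3 inbred windows, 205 V6.5 windows and 286 V6.5 4f2a windows. The high windows of the V6.5 libraries lay in the same places, with a Pearson correlation of 0.963 over windows, whereas the inbred library had 0.119 with V6.5 and 0.141 with V6.5 4f2a. These windows share their sequence, so the correlations describe position and carry no p-value. With both V6.5 libraries pooled, 228 of the windows were at 10% or more and formed 117 runs, of which the longest were 8 Mb. One of them was chr14:6000001-14000000, where U1 held 14.1% of V6.5 reads, 15.2% of V6.5 4f2a reads and 4.73% of inbred reads. Another was chr1:170000001-178000000, with 13.0%, 14.0% and 4.84% in the same order. In the 466 windows where the pooled V6.5 share was under 6%, the shares were 5.02% in V6.5, 6.19% in V6.5 with 4f2a and 4.56% in the inbred library.

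The 3 inbred windows at 10% or more were also high in V6.5. They were chr17:39000001-40000000 with 17.1% in the inbred library and 16.99% in V6.5, chr11:3000001-4000000 with 12.9% and 13.6%, and chr17:6000001-7000000 with 10.3% and 12.7%. The positions of high U1 share thus set the libraries apart as their labels do, since the line labelled as a hybrid had long stretches of it and the line labelled as inbred had these few windows.

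**Figure D1:**
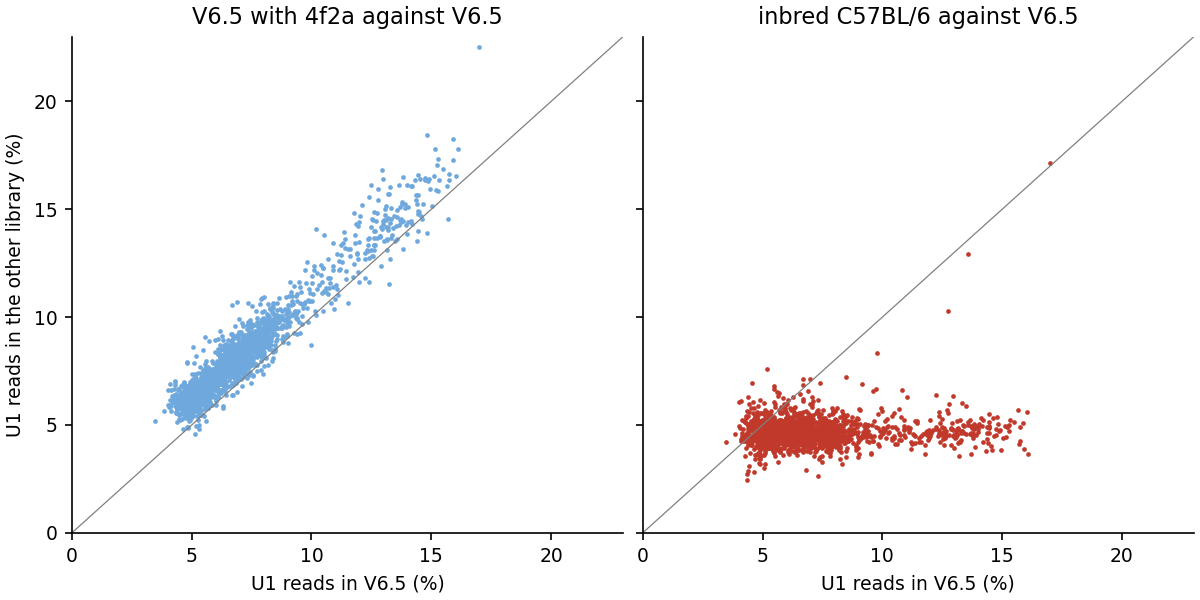
Share of reads in section U1 (percent) in 1 Mb windows of the autosomes, V6.5 with 4f2a (left) and the inbred library (right) against V6.5; each point is 1 window. The 4f2a points follow V6.5 up to high shares, while the inbred points stay near their median of 4.60%.

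Chromosome 8 stood apart in V6.5 and not in the other 2 libraries. Its reads amounted to 6.55% of those on the other autosomes in V6.5, 5.73% in V6.5 with 4f2a and 5.87% in the inbred library. V6.5 exceeded V6.5 with 4f2a by 0.19 (log2) on chromosome 8, while the 18 other autosomes ran from -0.06 to 0.08. The inbred library differed from V6.5 with 4f2a by 0.03 on chromosome 8 and from V6.5 by -0.16. The excess was about as large outside the tested bins (0.18, other autosomes -0.03 to 0.04) as inside them (0.20). It was seen along the chromosome, with all 14 windows of 10 Mb between 0.05 and 0.34, at a median of 0.23, beside a median of 0.06 and a range of -0.23 to 0.26 over 242 windows elsewhere, so the ranges overlap.

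V6.5 libraries of other kinds than H3K4me1 had a similarly high share of chromosome 8. Of these, WCE and H3 had little enrichment in the tested bins, with 29.8% and 25.8% of their reads there. The H3K27ac, H3K4me3 and p300 libraries had from 47.5% to 77.1% there. WCE had 6.75%, H3 6.73% and H3K4me3 6.75%, the H3K27ac pair had 6.73% and 6.86%, and the p300 pair had 6.84% and 6.70%. Liver WCE had 5.77%, liver H3 5.68% and MEF H3 5.66%. V6.5 WCE over liver WCE was 0.23 (log2), a ratio of 1.17, and V6.5 H3 over liver H3 was 0.24, while no other autosome passed 0.05 in either comparison. Bins of chromosome 8 were therefore counted separately, and a mean of both V6.5 libraries there averages values that differ. The inbred library minus the V6.5 mean was -0.06 over the chromosome, 0.03 against the 4f2a library alone and -0.16 against V6.5 alone.

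**Figure D2:**
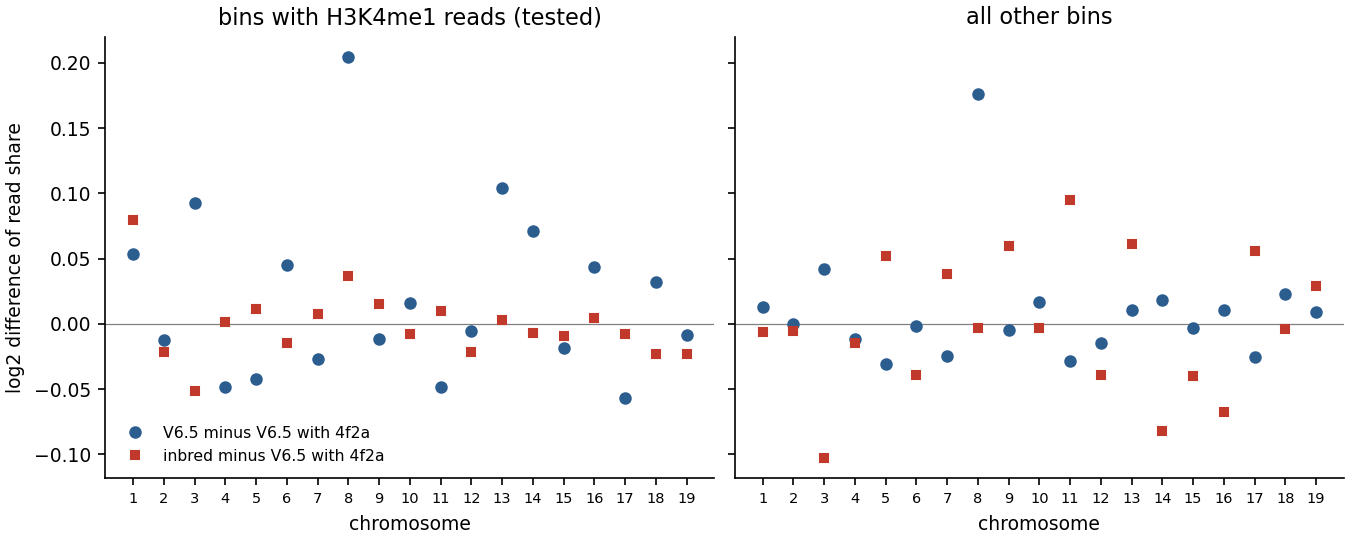
Log2 difference of each autosome's share of H3K4me1 reads, V6.5 minus V6.5 with 4f2a (circles) and the inbred library minus V6.5 with 4f2a (squares), in tested 5 kb bins (left) and all other bins (right). On chromosome 8 V6.5 stands at 0.20 and 0.18, above every other autosome, while the inbred library is at 0.04 and -0.00.

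Bin by bin, the inbred library was further from each V6.5 library than these were from each other. Over 83636 tested 5 kb bins outside chromosome 8, at equal depth, 8.59% of bins were at least 2-fold apart between the inbred library and V6.5 on the log2(RPM + 0.5) scale. The share was 5.34% between the inbred library and V6.5 with 4f2a, and 2.40% between the V6.5 libraries. The Pearson correlations of log2 values followed the same order, at 0.733, 0.810 and 0.844. Against the V6.5 mean, 2643 bins were at least 2-fold higher in the inbred library and 1141 were lower, 4.52% in all. In 211438 bins of 1 kb the shares 2-fold apart were 15.1%, 11.5% and 8.16%, so the smaller bins, with fewer reads each, separated the pairs less. On chromosome 8 the 4975 tested 5 kb bins gave 6.35%, 5.63% and 3.24%. With 1 library against 2, an exact permutation test cannot go below p = 0.333, and these shares carry no test. Comparisons with the inbred library share that library, and comparisons with V6.5 share V6.5.

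**Figure D3:**
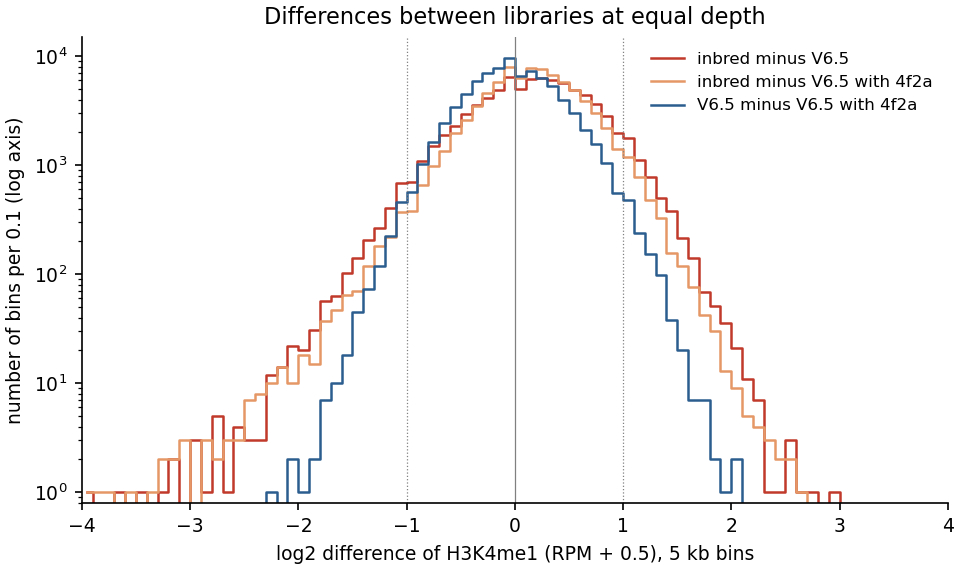
Number of 5 kb bins (log axis) by log2 difference of H3K4me1 between thinned libraries, for the V6.5 pair and for the inbred library against V6.5 and against V6.5 with 4f2a. The inbred comparisons are wider than the V6.5 pair and centred above 0, at medians of 0.19 and 0.16.

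The limma-trend test as designed called 0% of the 5 kb bins and 0% of the 1 kb bins at a Benjamini-Hochberg adjusted p of 0.05. At an unadjusted p of 0.05, limma gave 5255 of 83636 bins of 5 kb higher in the inbred library and 1890 lower, and 12232 and 5566 bins of 1 kb. With the trimmed mean of M-values, a scaling that brings most bins to no difference, the balance was reversed, at 3920 and 5415 bins of 5 kb and 5960 and 10064 of 1 kb. Thinned whole numbers left 3.40% of 5 kb bins and 6.67% of 1 kb bins with equal counts in the V6.5 libraries and hence a spread of 0, which left the moderated spread with 1.58 prior degrees of freedom. At full depth no tested bin had equal values, and the same limma test called 1601 bins of 5 kb higher and 768 lower. Depth was then unequal, with 5854295 inbred reads outside chromosome 8 against 9334897 in V6.5 and 8881152 in V6.5 with 4f2a. A spread taken from the deeper V6.5 libraries understates the counting error of the inbred library, and its part in these calls was not tested. A second limma fit of the thinned counts, chosen after seeing the data, added uniform noise of at most 0.5 read to each count so that ties were broken. The calls below come from that fit, in which limma took the spread of every bin from its trend over read level. The single inbred library was assumed to vary as the V6.5 libraries do.

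In that fit 569 bins of 5 kb (0.68%) were higher in the inbred cells and 353 (0.422%) were lower, at a limma adjusted p of 0.05. The median log2 difference was 1.35 among the higher bins, within 0.71 to 2.63, and -1.54 among the lower ones, within -3.93 to -0.95. All tested bins outside chromosome 8 had a median of 0.18, so with RPM the inbred library was slightly higher at most bins. Scaling by a trimmed mean of M-values brought this median to 0.00 and turned the balance of calls. Higher bins were 61.7% of the calls with RPM and 19.2% with the trimmed mean, which gave 145 higher and 609 lower. All of these 145 were among the 569, and all 353 lower bins were among the 609. The direction of the majority therefore depends on the scaling.

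The 569 higher bins joined into 498 regions, 444 of them a single bin, and the 353 lower bins into 334 regions, 320 of them a single bin. They were spread over the genome. Higher bins made up 0.315% of tested bins on chromosome 19 and 1.27% on chromosome 1, the extremes, and lower bins 0.242% on chromosome 2 and 0.688% on chromosome 18. On chromosome 8 the fit called 11 higher bins (0.221%) and 25 lower bins (0.503%). Bins of 1 kb gave 198 higher (0.0936%) and 692 lower (0.327%), and on chromosome 8 they gave 4 higher (0.0315%) and 51 lower (0.402%). A lower 1 kb call lay inside 163 of the 353 lower 5 kb bins (46.2%), and a higher one inside 95 of the 569 higher bins (16.7%).

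In the 10 regions with the largest loss in the inbred cells, each V6.5 library had at least 43 reads and the inbred library had 0 to 46. At chr15:97385001-97390000 the inbred library had 0 reads, V6.5 had 55 and V6.5 with 4f2a had 54. At the V6.5 mean level the inbred library would have held 35.04 reads, so with a floor of 3 reads in that library it was at least 11.7-fold lower (limma adjusted p = 2.07e-05). The exact 95% interval of 0 reads, as used for the ratios below, gives a lower bound of 9.50-fold. The same bin carried 0.0920 RPM per kb of H3K4me3 and 0.731 and 0.661 of H3K27ac, all low. At chr9:22145001-22150000 the counts were 3, 80 and 74 reads, and V6.5 exceeded the inbred library 16.5-fold, with a 95% counting interval of 5.64 to 80.0. That bin had H3K27ac at 2.73 and 2.01 RPM per kb and hardly any H3K4me3, at 0.184.

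The longest region that was lower in the inbred cells was chr11:35210001-35255000, 45 kb with 7 called bins. It held 46 inbred reads, 583 V6.5 reads and 514 V6.5 4f2a reads, or 0.175, 1.39 and 1.29 RPM per kb. The difference was -2.86 (log2). The V6.5 libraries had a mean of 1.34 RPM per kb with an SD of 0.0719 (n = 2). The smallest limma adjusted p of its bins, 7.18e-16, comes from the pooled spread and not from this SD. H3K27ac of V6.5 cells stood there at 2.16 and 2.06 RPM per kb, H3K4me3 at 0.532 and iPS H3K4me1 at 1.62. V6.5 WCE was 0.778 RPM per kb and H3 0.652, close to their medians of 0.706 and 0.614 over all tested bins, so the stretch was covered in unenriched V6.5 chromatin; no such library of the inbred cells was used here. Within 25 kb on each side the H3K4me1 levels were 0.407, 0.791 and 0.887 RPM per kb, lower in the inbred library as well.

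Other losses fell on bins with H3K4me3. At chr13:81345001-81350000 the counts were 1, 43 and 48 reads, where V6.5 cells had H3K4me3 at 16.4 RPM per kb, H3K27ac at 8.72 and 10.2 and p300 at 9.80 and 7.40. The ratio of V6.5 to inbred there was 29.3, with a counting interval of 5.26 to 1157, which a single read leaves wide. At chr13:109010001-109015000 the counts were 13, 135 and 333 reads, so the V6.5 libraries differed among themselves more than 2-fold. H3K4me3 stood at 11.2 RPM per kb there, and iPS H3K4me1 reached 23.1 RPM per kb, above all 3 ES libraries. This bin had the smallest limma adjusted p among the named regions, 3.62e-19. That p takes no account of how far apart the V6.5 libraries were at this bin, since the spread came from the trend.

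The remaining 5 of the 10 largest losses had 2 to 10 inbred reads. Their differences ran from -2.77 at chr1:45735001-45740000 to -2.99 at chr4:15160001-15175000, where the counts were 10, 145 and 165 reads. V6.5 WCE was 0.215 and 0.266 RPM per kb at these regions and H3 0.273 and 0.311, below the medians of 0.706 and 0.614 over tested bins. Both losses cannot be told apart from a difference in how many reads can be placed there. At chr4:126175001-126180000 the counts were 5, 74 and 116 reads, at chr5:33275001-33280000 they were 2, 53 and 52, and at chr19:56565001-56570000 they were 5, 81 and 85. In none of the 10 did the inbred level come near either V6.5 level. Among the regions with the most called bins was also chr13:31685001-31695000, with 9, 129 and 96 reads and a difference of -2.64.

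At the 10 largest gains in the inbred cells, V6.5 had H3K4me3 at most 0.552 and H3K27ac at most 1.05 RPM per kb. Medians over tested bins were 0.460 for H3K4me3 and 0.925 and 0.865 for the H3K27ac pair. Gains were picked for low H3K4me1 in V6.5, and some passed the read filter only through the inbred library. The part of this choice in the V6.5 marks was not tested. At chr4:12345001-12350000 the counts were 61 reads in the inbred library, 12 in V6.5 and 12 in V6.5 with 4f2a, or 2.08, 0.257 and 0.270 RPM per kb. The difference was 2.59 (log2(RPM + 0.5); limma adjusted p = 0.00134). V6.5 H3 at 0.978 and WCE at 0.768 RPM per kb stood above their medians over tested bins, so reads of V6.5 chromatin were placed there. At chr13:70455001-70465000 the counts were 137, 40 and 41 reads, a difference of 2.27 (smallest limma adjusted p 6.89e-06). Section U1 held 15% and 31.7% of the V6.5 and 4f2a reads in that region and 1.46% of the inbred reads. Such shares were not particular to gains. Among the named losses they were 32.1% and 17.3% in V6.5 and V6.5 with 4f2a at chr5:33275001-33280000, but 6.25% and 4.05% at chr9:22145001-22150000.

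At chr7:133035001-133045000 the counts were 206, 75 and 71 reads, a difference of 2.07 with the V6.5 libraries at 0.803 and 0.799 RPM per kb. This region had p300 at 1.58 and 1.24 RPM per kb, above the medians of 0.983 and 0.906 over tested bins, with H3K4me3 at 0.322. The bin chr4:133070001-133075000 had 56, 10 and 14 reads, but V6.5 H3 was only 0.228 RPM per kb there and WCE 0.215, so few V6.5 reads of any kind were placed in it. Its gain cannot be told apart from a difference in how many reads can be placed in it.

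The remaining 6 of the 10 largest gains were chr18:47050001-47055000, chr11:100385001-100390000, chr6:146360001-146365000, chr19:55955001-55960000, chr17:87490001-87505000 and chr17:11930001-11935000, with differences from 2.07 to 1.91. At chr19:55955001-55960000, the region with the highest inbred level of these, the counts were 110, 36 and 47 reads. The widest gain was chr4:128400001-128440000, with 7 called bins and 769, 461 and 504 reads, or 3.28, 1.23 and 1.42 RPM per kb. The next by number of bins were chr1:135155001-135185000, at 3.15, 1.02 and 1.40 RPM per kb, and chr5:149835001-149860000, at 2.86, 1.196 and 1.13. These 3 wide gains lay between 1.29 and 1.39 (log2), near the median of all higher bins. In the 25 kb on each side of the widest gain the levels were 2.46 RPM per kb in the inbred library, 1.42 in V6.5 and 1.76 in V6.5 with 4f2a, so the difference went on beyond the called bins.

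**Figure D4:**
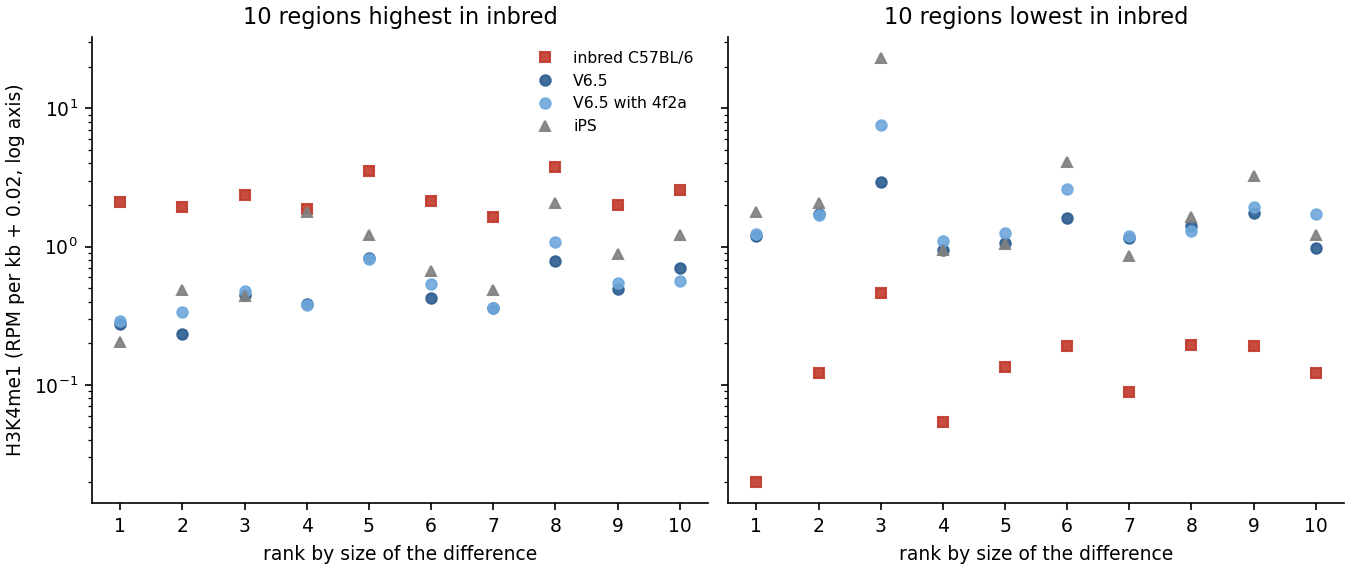
H3K4me1 level (RPM per kb, log axis, with a small constant added so that 0 can be drawn) of the 10 regions with the largest gain (left) and the 10 with the largest loss (right) in the inbred cells, by rank, in the 3 ES libraries and in iPS cells. In the losses the inbred points lie apart below all others, and the V6.5 points lie furthest from each other at chr13:109010001-109015000, the third by rank.

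On chromosome 8, 2 of the 3 largest losses were at bins with strong promoter marks. At chr8:87550001-87555000 the counts were 16, 165 and 294 reads, with H3K4me3 at 34.6 RPM per kb and H3K27ac at 28.6 and 35.9 (limma adjusted p = 1.24e-18). At chr8:49170001-49175000 they were 13, 93 and 135 reads, with H3K4me3 at 28.1. At chr8:85870001-85875000 they were 3, 49 and 41 reads, with H3K4me3 at 0.368 and H3K27ac at 0.463 and 0.458, below their medians over tested bins. The first and the second were higher in the 4f2a library than in V6.5, against the overall excess of the chromosome in V6.5.

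Of the 3 largest gains on chromosome 8, 1 rested on the 4f2a library. At chr8:121905001-121910000 the counts were 47, 45 and 8 reads, so V6.5 stood at 0.964 RPM per kb, V6.5 with 4f2a at 0.180 and the inbred library at 1.61. Its difference of 1.64 (limma adjusted p = 0.0497) was 0.68 against V6.5 alone. At chr8:36745001-36750000 the counts were 71, 40 and 27 reads, and at chr8:126020001-126025000 they were 84, 40 and 43 reads, with the inbred level above both V6.5 levels. The last of these had 5.77 RPM per kb of H3K4me1 in MEFs.

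Lower and higher bins stood on opposite sides of the tested bins in their shares with at least 2 RPM per kb of V6.5 H3K4me3, H3K27ac and p300. H3K4me3 of at least 2 RPM per kb was found at 189 of 353 lower bins (53.5%, 95% Wilson interval 48.3% to 58.7%), at 13 of 569 higher bins (2.28%, 1.34% to 3.87%) and at 13.3% of all tested bins. H3K27ac was at least 2 RPM per kb in both of its libraries at 50.1% of lower, 6.68% of higher and 21.2% of tested bins. For p300 the shares were 11.9%, 2.81% and 7.82%, an order that depended on the threshold. Mean p300 at higher bins was 1.36 and 1.16 RPM per kb in its 2 libraries, above 1.24 and 1.13 over tested bins. The medians at higher bins were 1.01 and 0.880, against 0.983 and 0.906. The marks were measured in V6.5 cells alone and were not used in calling, but lower bins must have H3K4me1 in V6.5. Higher bins can pass the read filter through the inbred library, with little H3K4me1 in V6.5. The V6.5 mean level was 1.84 RPM per kb at the median lower bin, 1.05 at the median higher bin and 1.27 at the median tested bin. The part of that level in these shares was not tested. Intervals cover counting error only, and the H3K4me3 library had 2368678 distinct reads, with 70.0% of its reads repeats.

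Over all tested bins the H3K4me1 difference was lower in the classes of high H3K4me3. The inbred library minus the V6.5 mean had a median of 0.22 (log2) in bins with H3K4me3 under 0.5 RPM per kb, 0.10 in bins with 2 to 5, and -0.27 in 2485 bins with at least 10. Against V6.5 with 4f2a the medians declined through every class, from 0.22 to -0.29. Against V6.5 they were 0.21, 0.22 and 0.27 in the 3 classes under 2 RPM per kb, which hold most bins, and then declined to -0.24. Between the V6.5 libraries the medians ran from 0.03 in the lowest class to -0.16 in bins with 2 to 5 RPM per kb, and -0.07 in the top class. Called losses were 0.209% of the bins in the lowest class and 3.42% in the highest, and called gains were 0.874% and 0.0402%. With the trimmed mean of M-values the medians of the lowest, the 2 to 5 and the top class were 0.04, -0.08 and -0.44, so the top class stayed the lowest and the crossing of 0 moved.

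Around 9845 local maxima of V6.5 H3K4me3 the 3 profiles had like shoulders but not the same centre. At 2 to 3 kb from the maximum the mean was 1.58 RPM per 1 kb bin in the inbred library, 1.58 in V6.5 and 1.53 in V6.5 with 4f2a. At the centre it was 1.04, 1.09 and 1.75, so the inbred library and V6.5 fell to a deep dip between their shoulders and the 4f2a library had a shallow one, above its level at 2 to 3 kb. At 8 to 10 kb it was 1.17, 1.07 and 1.09. The centre thus set the V6.5 libraries apart from each other, and the inbred cells were on the side of V6.5 without the transgene. Around 3520 maxima of p300 away from H3K4me3, which mark candidate enhancers, the centre was 3.68 in the inbred library, 3.36 in V6.5 and 3.69 in V6.5 with 4f2a, so the inbred centre lay inside the range of the V6.5 pair. Away from it the inbred library was above both, with 1.69 against 1.47 and 1.43 at 2 to 3 kb and 1.13 against 0.985 and 0.999 at 8 to 10 kb. Its ratio of centre to far level, 3.24, was thus below those of V6.5, 3.41, and V6.5 with 4f2a, 3.70. The strand distance, a measure of fragment length, was 150 bp in the inbred library, 120 bp in V6.5 and 110 bp in V6.5 with 4f2a, and its part in the profiles was not tested.

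**Figure D5:**
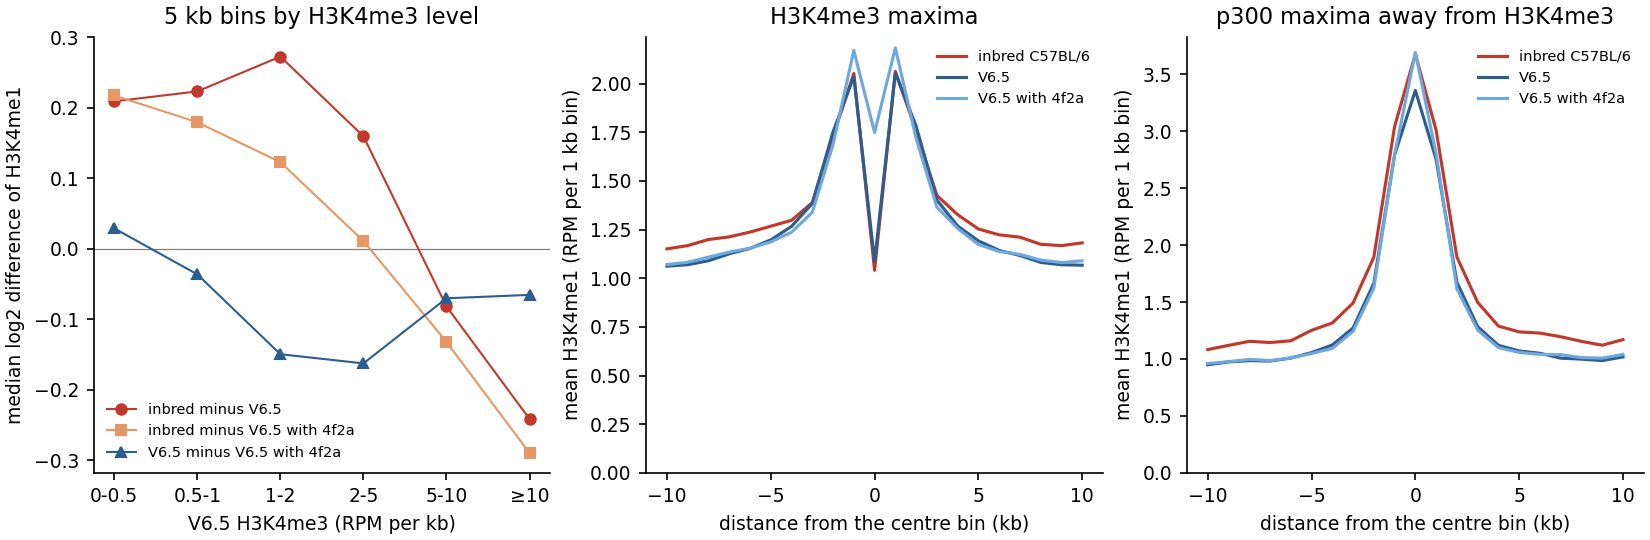
Median log2 difference of H3K4me1 in 5 kb bins by V6.5 H3K4me3 level (RPM per kb), and mean H3K4me1 (RPM per 1 kb bin) by distance (kb) from maxima of H3K4me3 and of p300. With RPM scaling the inbred comparisons fall below 0 at H3K4me3 levels of 5 RPM per kb and more (against the V6.5 mean, from 2 on with the trimmed mean), and the dip at the H3K4me3 centre is shallow in the 4f2a library, at 1.75.

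The iPS cells, derived from MEFs, gave an H3K4me1 library that had no part in the calls. At the lower bins the median level was 0.547 RPM per kb in the inbred library, 1.80 in V6.5, 1.78 in V6.5 with 4f2a and 1.76 in iPS cells. The iPS level was above the inbred level at 346 of 353 lower bins (98.0%), beside 48.5% of all tested bins. It was nearer to the V6.5 mean at 313 lower bins (88.7%), beside 52.3% of all tested bins. At the higher bins the medians were 2.80, 1.01, 1.13 and 1.57, and iPS cells were nearer to the V6.5 mean at 348 of 569 bins (61.2%). Bins called for an extreme inbred level put other libraries on its inner side in part by choice, and the iPS library held a median of 19 and 17 reads per bin, so these shares are a description. The U1 share of the iPS library followed that of V6.5 over windows, with a Pearson correlation of 0.927, while the inbred share had 0.119 with V6.5 and 0.148 with iPS cells.

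The share of called gains was larger in windows where V6.5 reads had a high U1 share, and the share of called losses had no such order. Higher bins were 0.291% of tested bins in windows where U1 held under 6% of the reads of both V6.5 libraries together, 0.639% at 6 to 8%, 0.931% at 8 to 10%, 1.18% at 10 to 12% and 1.196% at 12% or more. Lower bins were 0.542%, 0.379%, 0.329%, 0.479% and 0.533% in the same classes. Within the higher bins U1 held 9.75% of V6.5 reads against 8.28% in the windows around them, 11.5% against 9.45% of V6.5 4f2a reads and 5.75% against 4.87% of inbred reads. Lower bins had such an excess too, with 7.998% against 7.01% in V6.5, 8.84% against 8.18% in V6.5 with 4f2a, 5.30% against 4.83% in the inbred library and 11.04% against 7.95% in V6.5 WCE. V6.5 WCE was 0.737 RPM per kb at the median higher bin and 0.583 at the median lower bin, beside 0.706 over tested bins. WCE under 0.4 RPM per kb was found at 4.22% of higher, 18.4% of lower and 6.503% of tested bins. When U0 reads alone were used, 601 bins were higher and 344 lower, of which 409 and 264 were calls of the fit on all reads. The part of read mapping in the gains was not tested further.

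Bins marked in fibroblasts, the kind of cell used as feeders, but not in iPS cells or liver, had low levels in the 3 ES libraries. Of the 5 kb bins, 1438 had H3K4me1 of at least 3 RPM per kb in MEFs and under 0.5 in iPS cells and liver. A choice of bins low in iPS cells favours low levels in ES cells, so low ES levels here are no separate result. The MEF and iPS values given next follow from the same choice. Their mean was 0.339 RPM per kb in the inbred library, 0.344 in V6.5 and 0.354 in V6.5 with 4f2a, against 4.32 in MEFs and 0.207 in iPS cells. In bins without the mark in MEFs, iPS cells and liver their means were 0.140, 0.205 and 0.193 RPM per kb. In the 1438 fibroblast bins the medians were 0.239, 0.29995 and 0.315, so the inbred library was lower there by the median. Its mean in these bins was further above its own mean in unmarked bins than in either V6.5 library. Of the 1438 bins, 108 held enough reads to be tested. In the limma fit with ties broken 0 of them were called, beside 0.68% called higher and 0.422% called lower among all tested bins outside chromosome 8. At such rates, 0 calls among 108 bins cannot show that these bins differ less than others. At an unadjusted p of 0.05, limma gave 16 of the 108 higher and 2 lower in the inbred library. Of all 83636 tested bins outside chromosome 8 it gave 9172 and 2897. A small difference at the fibroblast bins that were not tested was not detectable at this depth.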

How the data were processed

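H3K4me1 ChIP-seq libraries of inbred C57BL/6, V6.5 and V6.5 4f2a ES cells were compared, with 13 further libraries of the series beside them. Per the labels, all 3 were immunoprecipitated with the same antibody, and groups were taken from the titles. The files the authors deposited hold signed read positions under chromosome names, in sections U0 and U1, and neither counts per feature nor a signal. Which aligner and which build made them is not given in the sources used here. Positions lie within the chromosome lengths of mm8, and coordinates are 1-based as in the files. No genome or annotation of that build was used here, so regions carry no gene names or sequences.

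Reads were counted once per position and strand, moved 100 bp toward the fragment centre, and counted in 5 kb and 1 kb bins of chromosomes 1 to 19. Totals for RPM leave out chromosome 8. The libraries were thinned to 5854295 reads and compared on log2(RPM + 0.5) with limma-trend 3.58.1 in R 4.3.3, two-sided, with Benjamini-Hochberg adjustment over all tested bins and 1 residual degree of freedom. The designed fit called no bin, so calls come from an added fit with ties broken. Counts, shares and figures used Python 3.11.15, numpy 2.4.6, pandas 2.3.3, scipy 1.17.1 and matplotlib 3.10.9. Levels of regions are from all distinct reads.

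Called bins at most 1 bin apart were joined. The rule named the 10 regions with the largest difference in each direction, the 3 largest on chromosome 8 and the 3 with most called bins, and for a test without calls the 5 bins of smallest p in each direction. Since the designed fit had no call, both were applied, and the second is in the closing section. The libraries, bins and lists were chosen with earlier results of these data known. Alternatives were other scalings, filters, pseudocounts, thinnings, read sets, limma settings and leaving out each V6.5 library. Intervals are Wilson for shares and exact for ratios of read counts, at 95%, and cover counting error only.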

Additional observations from a re-analysis of the deposited data

How the results depend on the processing

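In the designed limma fit of thinned reads no 5 kb or 1 kb bin passed. All distinct reads, with depth left unequal, gave 1601 higher and 768 lower bins of 5 kb and 1653 and 1462 of 1 kb. The trimmed mean of M-values, which also separates equal counts, gave 114 and 535, and 43 and 859, and a robust fit gave 510 and 326 at 5 kb. Breaking ties, chosen after seeing the data as were its combinations, gave 569 and 353, and 198 and 692. Ties broken with the trimmed mean gave 145 and 609, and 57 higher at 1 kb. Ties broken without a filter gave 207 higher at 5 kb and 94 at 1 kb. A stricter filter (at least 40 or 16 reads) gave 344 and 176, and 61 and 268, with fewer bins tested. Without the trend there were 922 and 553 at 5 kb, and a pseudocount of 2 RPM gave 465 higher at 1 kb. A second thinning shared 405 of the 569 higher and 284 of the 353 lower bins. Leaving out a V6.5 library leaves no residual degree of freedom, so that calls were not recomputed.

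The percentage of 5 kb bins at least 2-fold from the V6.5 mean, 4.52%, was 5.34% to 8.59% with 1 V6.5 library left out. It was 4.03% with all distinct reads, 3.84% with the trimmed mean, 6.04% and 1.45% with pseudocounts of 0.1 and 2 RPM, 13.4% without a filter, 2.94% with the stricter one, 4.70% with repeated reads and 4.94% with U0 reads. The difference of chromosome 8, -0.06, was -0.16 to 0.0349 with 1 V6.5 library left out, reversing without the V6.5 library that has no transgene, and -0.25 with the trimmed mean. Unless stated above, the cause was not tested. The 30 named regions kept their direction in all 300 recomputed values, of which 98 moved by more than the V6.5 SD, and their sizes ran from 0.68 to 5.93 (log2). They were picked for large or long differences in these same reads, so the kept direction was close to fixed and is no separate support. Since the inbred cells have 1 library at the lowest depth, a difference between 2 inbred cultures cannot be seen, and bins with few reads in it have wide intervals. No paired analysis was possible because the inbred group has 1 library and shares only 1 replicate number with V6.5.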

Other observations

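Outside the tested bins, the inbred reads were spread differently over the genome than V6.5 reads. In 2239 windows of 1 Mb, the share of each library's untested reads that fell in a window differed between the inbred library and the V6.5 mean with an SD of 0.54 (log2), against 0.12 between the V6.5 libraries. The difference followed how many bins of a window were tested for H3K4me1. Its median was -0.77 in 764 windows with under 5% of bins tested and 0.38 in 366 windows with at least 40%, while V6.5 minus V6.5 with 4f2a had medians of 0.03 and -0.08 there. The lowest window was chr1:29000001-30000000, with no tested bin, where the untested bins held 62 inbred reads, 657 V6.5 reads and 521 V6.5 4f2a reads, while V6.5 WCE held 1280. It was followed by chr5:79000001-80000000 with 67, 668 and 569 reads, chr3:43000001-44000000 with 69, 594 and 514, chr10:103000001-104000000 with 77, 661 and 568, and chr5:70000001-71000000 with 69, 548 and 535. The highest window was chr10:93000001-94000000, with 64 tested bins, at 1675, 2079 and 2031 reads, a difference of 0.80. The next were chr5:114000001-115000000 at 0.78, chr5:140000001-141000000 at 0.78, chr5:149000001-150000000 at 0.74 and chr1:135000001-136000000 at 0.74. These 10 windows were named by a rule of size, and no test was made on them.

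Under the designed fit, the 5 bins in each direction with the smallest limma p did not pass, each with an adjusted p of 0.508. The higher ones were chr13:70460001-70465000 with 84, 19 and 15 reads in the inbred, V6.5 and 4f2a libraries, chr14:47085001-47090000 with 88, 27 and 26, chr6:144910001-144915000 with 90, 42 and 36, chr15:85980001-85985000 with 116, 50 and 43, and chr1:135170001-135175000 with 119, 46 and 52. The lower ones were chr19:56565001-56570000 with 5, 81 and 85 reads, chr4:15170001-15175000 with 7, 97 and 111, chr9:22145001-22150000 with 3, 80 and 74, chr11:35230001-35235000 with 3, 87 and 114, and chr15:97385001-97390000 with 0, 55 and 54. At chr11:35230001-35235000, inside the long loss on that chromosome, V6.5 H3K27ac reached 8.57 and 9.74 RPM per kb, and H3K4me3 was 1.29.

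The X chromosome was not tested. Its reads relative to those of the autosomes other than chromosome 8 gave -0.44 (log2) for the inbred library minus V6.5, -0.32 for the inbred library minus V6.5 with 4f2a and 0.13 for V6.5 minus V6.5 with 4f2a. These autosomal totals include the tested bins, where the inbred library held a larger share of its reads. Relative to the untested bins of the same autosomes, X gave 0.05, 0.09 and 0.04 in the same order. Every X bin counted as untested, so bins with many H3K4me1 reads were kept on X but left out on the autosomes. These sets of bins are unlike, so the second values cannot show whether the lower inbred value holds in comparable bins. The U1 share on X was 4.80% in the inbred library, 5.01% in V6.5 and 6.20% in V6.5 with 4f2a, so X had lower shares than any autosome in both V6.5 libraries.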
